A study of Mus musculus with 15 samples.

Results

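The transcripts of 10 heart muscle genes, Myh6, Myh7, Myl7, Myl2, Myl3, Myl4, Nppa, Ttn, Actc1 and Tnnt2, were followed over sections of mouse embryos. The members were taken by name, and all 10 were found among the 30534 gene columns of the series. Transcripts had been counted by barcoding in tissue, in which a frozen section is divided into a grid of pixels that each carry their own barcode pair. The 11 transcript libraries came from sections of embryos at embryonic day (E) 10, 11 and 12, with pixels 10, 25 or 50 µm wide: 3 of E10 50 µm, 1 of E10 25 µm, 2 of E10 10 µm, 2 of E11 25 µm, 2 of E11 10 µm and 1 of E12 50 µm. Antibody tags were counted in 4 further libraries of E10 sections. The labels name no strain, genotype or treatment, and neither the embryo nor the region that was cut, so stage, width, region and embryo cannot be told apart, and the spread between libraries of a group may be technical.

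Heart muscle contracts through sarcomeres, in which myosin heads pull on actin filaments, titin spans the unit as a spring, and troponin lets calcium switch the pull on. Several parts exist as paralogs that the atria and the ventricles come to use differently. In the mouse, Myl7 (MLC2a) and Myl2 (MLC2v) are the atrial and ventricular regulatory light chains, Myl4 and Myl3 the atrial and ventricular essential light chains, and Myh6 and Myh7 the alpha and beta heavy chains. In the embryo this division is incomplete, and Myl7 in particular is present in ventricles early on. Nppa encodes atrial natriuretic peptide. Tnnt2 (cardiac troponin T), Actc1 (cardiac alpha-actin) and Ttn (titin) serve all chambers, and embryonic skeletal muscle also uses Actc1, Ttn, Tnnt2 and Myl4.

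In GENCODE M21 (build GRCm38), Myh6 (chr14:54941921-54966927) and Myh7 (chr14:54970684-54994626) lie head to tail on the minus strand with 3756 bases between them. They are closely similar paralogs, so reads could be split between them, and the counting rule is not given in the sources used here. Exons of Myh7 overlap 3 antisense genes, and those of Myh6, Myl2, Myl3, Myl4, Nppa, Ttn and Actc1 overlap 1 gene each on the other strand. Without a stated use of strand, the partners' reads cannot be told apart. Myl7 and Tnnt2 overlap no other annotated gene. Since genes differ in transcript length, levels were compared between places and libraries for 1 gene at a time, or as shares of a paralog pair, and not between genes.

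Promoter letters had no part in choosing the members. RefSeq promoter windows (GRCm38.p6) were held for all 10, and the 250 bases before each start were searched. The search covered both strands, except that TATAAA was searched on the strand of the gene only. The letters CATTCC, known as the M-CAT element, were present for 5 of the 10 genes (Myh6, Myh7, Myl7, Myl3 and Tnnt2) and in 12.6% of 32851 such windows of all genes. A CArG box, the serum response factor sequence, was present for 3 (Myl7, Myl3 and Actc1) against 1.47% of windows, a MEF2 box for 1 (Ttn) against 2.92%, AGATAA for 2 (Myl2 and Tnnt2) against 9.99%, and TATAAA for 1 (Nppa) against 7.59%. No motif overlapped another in these windows. These are letter matches and not shown binding sites. The windows below belong to the paralogs and partners on which the results turn, with the matched letters in capitals and the strand of the gene. RefSeq starts can differ from the outermost GENCODE start: those used here for Myl3, Actc1 and Myh6 lie 21817, 673 and 320 bases inside the GENCODE gene, and both of Myl2 lie upstream of it. The Myl2 windows are counted above but not printed.
Myl7 (chr11:5898783-5899032, minus strand; M-CAT, then CArG box): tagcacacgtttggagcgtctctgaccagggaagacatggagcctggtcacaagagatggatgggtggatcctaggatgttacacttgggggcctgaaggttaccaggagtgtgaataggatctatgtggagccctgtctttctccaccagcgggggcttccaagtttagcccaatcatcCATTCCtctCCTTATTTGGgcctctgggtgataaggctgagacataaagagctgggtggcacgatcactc
Myl3 (chr9:110763428-110763677, plus strand; M-CAT in each orientation, then CArG box): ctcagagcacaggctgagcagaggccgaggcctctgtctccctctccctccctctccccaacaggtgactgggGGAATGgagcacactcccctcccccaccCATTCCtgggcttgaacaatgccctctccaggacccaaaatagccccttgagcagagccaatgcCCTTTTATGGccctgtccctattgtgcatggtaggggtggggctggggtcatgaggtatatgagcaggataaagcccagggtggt
Actc1 (chr2:114052876-114053125, minus strand; CArG box): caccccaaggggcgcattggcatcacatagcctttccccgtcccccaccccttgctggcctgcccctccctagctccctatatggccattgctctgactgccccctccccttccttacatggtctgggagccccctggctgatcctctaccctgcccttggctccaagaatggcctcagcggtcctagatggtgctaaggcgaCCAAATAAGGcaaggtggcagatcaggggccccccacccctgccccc
Myh7 (chr14:54994627-54994876, minus strand; M-CAT, reversed): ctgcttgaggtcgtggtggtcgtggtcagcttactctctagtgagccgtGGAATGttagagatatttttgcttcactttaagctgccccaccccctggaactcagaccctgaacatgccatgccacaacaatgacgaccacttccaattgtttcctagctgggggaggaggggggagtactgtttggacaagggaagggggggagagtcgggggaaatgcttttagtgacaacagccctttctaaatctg
Myh6 (chr14:54966608-54966857, minus strand; M-CAT, reversed): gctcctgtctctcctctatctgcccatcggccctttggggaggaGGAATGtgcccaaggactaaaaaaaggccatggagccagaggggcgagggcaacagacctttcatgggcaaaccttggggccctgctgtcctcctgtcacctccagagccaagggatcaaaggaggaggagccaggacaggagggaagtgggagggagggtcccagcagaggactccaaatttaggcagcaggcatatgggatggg

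Tissue was taken to be pixels whose totals reached 0.1 times the 95th percentile in their library, which left 829 to 2271 pixels and 1563489 to 11998765 counts per library. Heart pixels were defined from 3 members: Tnnt2, Actc1 and Ttn together at 10 or more of 10000 counts and at least 3 counts, in a connected patch of 5 or more pixels. A patch counted as heart when it held more counts of a 12-gene heart list without the members (Nkx2-5, Tbx20, Gata4 and others) than of a 12-gene skeletal muscle list, and as skeletal otherwise. The name follows this rule and not histology, and a pixel can hold several cells or part of one. In CPM (counts per 1000000 counts of the same pixels), the heart list summed to 342 to 3508 CPM in heart pixels, against 26.2 to 194 CPM in the rest of the tissue. The call was weakest in E10 50 µm replicate 1, where the main patch of 63 pixels held 154 heart-list and 83 skeletal-list counts and a patch of 7 pixels held 2 and 1. In that library Tnnt2, which helped define the pixels, stood at 373 CPM outside the heart. Its heart pixels held a Tnnt2 count in 100% of cases, Actc1 in 81.9% and Ttn in 62.7%. The part of the broad Tnnt2 in this call was not tested. By this rule 9 of 11 libraries held heart pixels: 83, 133 and 54 in E10 50 µm replicates 1, 2 and 3, 39 in E10 25 µm, 817 in E10 10 µm replicate 1, 188 and 201 in E11 25 µm replicates 1 and 2, 263 in E11 10 µm replicate 2, and 86 in E12. None were found in E10 10 µm replicate 2 or E11 10 µm replicate 1.

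The summed level of the 10 genes over all tissue pixels followed the presence of heart in the section. It was 866, 2268 and 750 CPM in E10 50 µm replicates 1 to 3, 1625 CPM in E10 25 µm, and 3970 and 20.2 CPM in E10 10 µm replicates 1 and 2. At E11 it was 3871 and 3461 CPM at 25 µm and 88.7 and 6745 CPM at 10 µm, and at E12 2247 CPM. The pair of libraries without heart pixels thus stood below all others, and within each 10 µm group the replicates differed by more than any difference between group means. In the same pair the 12-gene heart list summed to 6.23 and 14.0 CPM. Over whole sections, fewer heart muscle cells and less RNA per cell cannot be told apart.

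**Figure D1:**
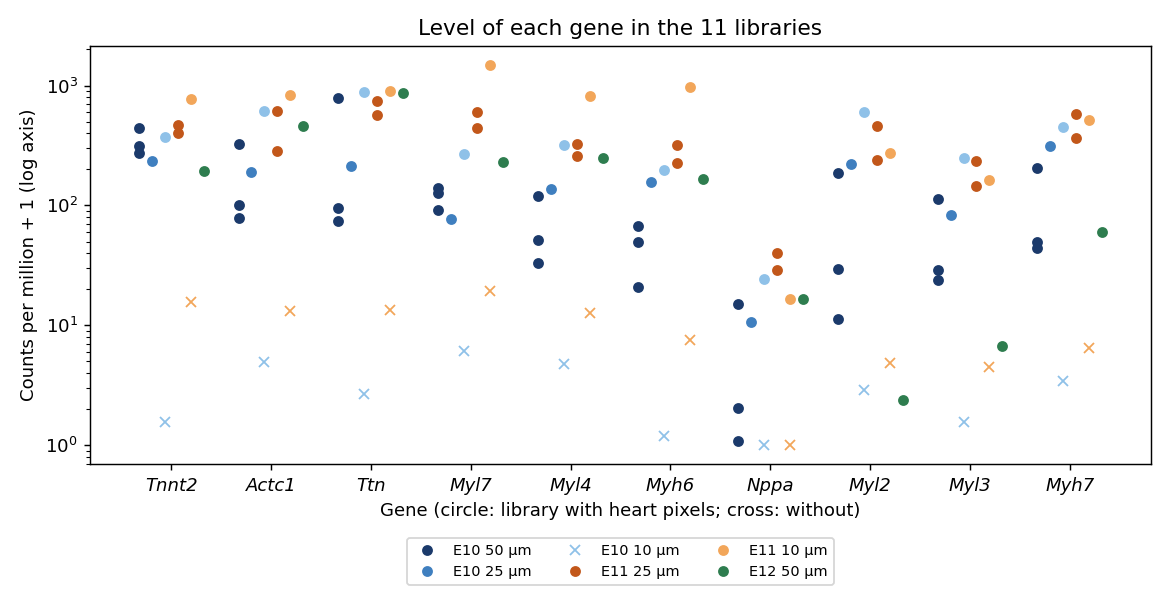
Level of each gene (CPM plus 1, log axis) in each of the 11 libraries, with 1 symbol per library, coloured by stage and pixel width. Crosses mark the 2 libraries without heart pixels, in which the summed level was 20.2 and 88.7 CPM.

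Among the general sarcomere genes, Tnnt2 was widespread in E10 50 µm replicates 1 and 3. In E10 50 µm replicates 1, 2 and 3 it stood at 446, 312 and 273 CPM, and a count was found in 96.7%, 56.1% and 87.0% of tissue pixels. With every pixel thinned to 1000 counts these shares were 35.9%, 15.4% and 23.5%, in the same order. The pixels richest in neural genes, which should lack it, held a Tnnt2 count in 96.5%, 41.0% and 72.6% of cases in these libraries. Tnnt2 outside the heart was 373 CPM in replicate 1 and 229 CPM in replicate 3, against 44.8 to 169 CPM in the other 7 libraries. Its excess in heart pixels was accordingly 3.87-fold and 7.61-fold there, and 8.84-fold to 72.1-fold in the others. In other libraries Actc1 was found in more pixels than Tnnt2, as in E12 (49.6% against 26.6%) and E10 10 µm replicate 1 (61.7% against 48.0%). In E10 50 µm replicate 1, Actc1 reached 46.6 CPM and Ttn 19.9 CPM outside the heart. The cause of the broad Tnnt2 signal was not tested.

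Ttn had the most clustered pattern of the general genes. Moran's I, which is near 0 for a scattered gene and near 1 when neighbouring pixels hold like levels, was 0.35 to 0.74 for Ttn over the 9 libraries, with a median of 0.71. Among genes seen in at least 5% of pixels it ranked 1st to 25th of 3377 to 12396 genes, whose median was 0.02 to 0.03. Actc1 followed with a median of 0.58 (ranks 5 to 48). Whole-section Actc1 ranged from 78.0 to 832 CPM and Ttn from 72.5 to 892 CPM in the 9 libraries.

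Of the genes tied to the atria, Myl7 and Myh6 stood higher in each E11 library with heart pixels than in any E10 library. Whole-section Myl7 was 91.1, 138 and 127 CPM in E10 50 µm replicates 1 to 3, 75.5 CPM in E10 25 µm, 269 and 5.10 CPM in E10 10 µm, 602 and 441 CPM in E11 25 µm, 18.3 and 1484 CPM in E11 10 µm, and 230 CPM at E12. Leaving out the library without heart pixels, those of E11 lay above all of E10, which is a description of libraries chosen by the level of the members. With every library of E11 and E10 at 10 and 25 µm, 0 of the 10 members separated without overlap. How many of all genes separate was not counted, either with every library or with the chosen ones. Myh6 was at most 196 CPM at E10, 226 to 975 CPM in the E11 libraries with heart pixels and 164 CPM at E12. Myl4 was 32.3 to 317 CPM at E10 and 257 to 825 CPM at E11 in the same libraries, so its ranges overlapped, as did those of most other members.

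Nppa was scarce everywhere. It gave 1, 118 and 11 counts in E10 50 µm replicates 1 to 3, 15 in E10 25 µm, 279 in E10 10 µm replicate 1, 197 and 213 in E11 25 µm, 43 in E11 10 µm replicate 2 and 101 at E12. The pair of libraries without heart pixels had no Nppa column and were taken as 0. The highest level was 38.9 CPM, in E11 25 µm replicate 1, where 5.63% of tissue pixels held a count. At such counts, its correlations and spatial values carry little precision.

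The ventricular light chain Myl2 was lowest at E12 of all 11 libraries. Whole-section Myl2 was 28.7, 185 and 10.2 CPM in E10 50 µm replicates 1 to 3, 219 CPM in E10 25 µm, 600 and 1.89 CPM in E10 10 µm, 459 and 238 CPM in E11 25 µm, 3.89 and 274 CPM in E11 10 µm, and 1.38 CPM at E12. The E12 section held 9 Myl2 counts of 6499879, although it had 86 heart pixels and 1495 Myl7 counts. Myl3 went with it, from 23.0 to 246 CPM in the other 8 libraries with heart pixels to 5.69 CPM at E12. Myh7 lay within the range of the other libraries at E12, at 59.2 CPM against 43.1 to 577 CPM.

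None of the 10 genes passed the test in any of the 4 comparisons of groups. All 10 passed the filter on low counts, and edgeR's quasi-likelihood test was fitted to 18233 genes in all 11 libraries, with adjusted p below 0.05 as the threshold. Between E11 and E10 over the 10 and 25 µm widths, 0 of 10 members were called against 3.6% of all genes. The members' median log2 fold change was 0.96 (median of all genes 0.05), with 9 of 10 above 0. Myl7 had the greatest, at 2.75 (SE 1.87, adjusted p 0.426, mean 636 CPM over 4 libraries against 117 CPM over 3), and Myl2 the least, at -0.09 (SE 2.03, adjusted p 0.994). The standard errors of the members were 1.81 to 2.15 log2 units.

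Between E12 and E10 at 50 µm, 0 of 10 members were called against 2.14% of genes, with 1 E12 library that is assumed to vary like the other groups. Myl2 had a log2 fold change of -5.84 (SE 4.65, adjusted p 0.667) and Myl3 one of -3.34 (SE 3.35, adjusted p 0.747). Myl4 had 1.8 (SE 2.29, adjusted p 0.807) and Ttn 1.33 (SE 2.83, adjusted p 0.896). Genes of skeletal muscle, which shares Ttn, Actc1 and Myl4, moved in the same comparison: 7 of 10 tested genes of that list were called higher at E12, with log2 fold changes of 5.81 for Myog (adjusted p 0.00168) and 4.32 for Mylpf (adjusted p 7.1e-04). Of other cell type lists, 5 of 9 red cell, 2 of 5 cushion mesenchyme, 1 of 5 smooth muscle and 1 of 8 liver genes were also called higher, and 1 red cell gene lower. Between E11 and E10, 3 of 10 neural, 2 of 9 red cell and 1 of 7 endothelial genes were called lower. Of the 7 further atrial genes, Stard10 was called higher in that comparison (1.92, adjusted p 0.0361), and Gja5, a gap junction gene, lower between 10 and 25 µm at E11 (-2.38, adjusted p 0.0482). These calls are over whole sections and not over the heart. In E11 25 µm replicates 1 and 2, Stard10 gave 22 and 25 counts in heart pixels against 214 and 148 in other tissue. Gja5 gave 2 and 50 against 46 and 110. The part of the listed cell types in the members' values was not tested.

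Between 10 and 50 µm at E10, 0 of 10 members were called against 0.11% of genes, with log2 fold changes from -0.89 (Tnnt2) to 1.94 (Myl2). Between 10 and 25 µm at E11, 0 of 10 were called against 2.07% of genes, with values from -2.16 (Nppa) to 0.76 (Myh6). In all 4 comparisons 0 members were below an unadjusted p of 0.05, and DESeq2 also called 0. The change from E10 to E11 did not differ between 10 and 25 µm for any member, with interaction values from -2.59 (Nppa) to 1.33 (Myh6) and adjusted p from 0.909 to 1. A p above the threshold does not show that levels were alike. These values rest on single libraries: without E11 10 µm replicate 2, Myh6 was at -1.44 and Tnnt2 at -1.27 between E11 and E10, and without E10 10 µm replicate 1 they were at 6.14 and 5.28.

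Of 22 further genes of the sarcomere and of calcium handling, all 22 were tested and 0 were called in either direction between E11 and E10, between 10 and 50 µm at E10, or between 10 and 25 µm at E11. At E12, 1 was called higher (Myom2, a myosin-binding protein of the M-band), with 19 counts there and 0 in the 3 E10 50 µm libraries, at least 29.6-fold higher when the group is set at 3 counts. That call rests on 1 library, which alone carried the gene past the filter on low counts, and 2 of its 19 counts lay in heart pixels and 6 in tissue that was neither heart nor skeletal patch. The list's median log2 fold changes were 0.96 between E11 and E10 and 0.91 between E12 and E10.

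Within sections, 41.4% to 87.7% of all counts of the 10 genes lay in heart pixels. This share is partly set by the rule, since Tnnt2, Actc1 and Ttn are among the 10 and defined the pixels. The 7 genes that did not define the pixels together made up 2282 to 37311 CPM of heart pixels, with a median of 12416 CPM over the 9 libraries. At 1 pixel from a heart patch the median was 420 CPM over 7 libraries, at 2 to 3 pixels 233 CPM, at 4 to 8 pixels 243 CPM and beyond that 244 CPM. Pixels differ in width, and the libraries differed in shape. In E11 10 µm replicate 2 the 7 genes went from 7895 CPM at 1 pixel to 2226, 749 and 667 CPM, and in E10 10 µm replicate 1 from 1052 CPM to 688, 301 and 323 CPM, so the decline ran over several pixels in these 10 µm sections. At E12 they were at 417, 173, 243 and 244 CPM. Skeletal patches were not left out at any distance. The 330 skeletal pixels at E12 held Myl4 at 436 CPM and Myh7 at 140 CPM, against 57.1 and 14.7 CPM in the remaining tissue. Pixels next to a patch are outside it because they missed the threshold on Tnnt2, Actc1 and Ttn, so the step at the edge is partly set by the rule.

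For the 7 members that did not define the pixels, the median ratio of heart to other tissue was 77.0 for Myh6, 56.5 for Myh7, 55.6 for Nppa, 52.9 for Myl2, 49.9 for Myl4, 41.4 for Myl3 and 40.6 for Myl7. The level in heart was higher in 62 of 63 pairs of these genes and libraries, and the exception was Nppa in E10 50 µm replicate 1, with no count in heart. Apart from Nppa and Tnnt2, the ratios were lowest in E10 10 µm replicate 1, where heart pixels made up 37.6% of the tissue, and the level outside was 73.0 CPM for Myl7 and 145 CPM for Myl2. In neural pixels, Myl2 counts were found in 47.1% of pixels in that library and in 0.00% at E12. The E12 section held 9 Myl2 counts in all, so the latter share follows from its low level. In E10 10 µm replicate 1, 121 neural pixels were left once heart pixels were taken out. The neural list there summed to 1150 CPM in heart and 1062 CPM in other tissue, so it set neural tissue apart poorly. The source of the counts outside the heart was not tested.

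Levels in heart pixels also differed widely between sections. Myl7 was 899, 792 and 3190 CPM in E10 50 µm replicates 1 to 3, 1874 CPM in E10 25 µm, 556 CPM in E10 10 µm replicate 1, 8304 and 4426 CPM in E11 25 µm, 11554 CPM in E11 10 µm replicate 2 and 4761 CPM at E12. All 3 E11 values and the E12 value were above all 5 E10 values, a difference that was not tested over heart pixels. The share of all genes with such an order was not counted. Myl2 in the same order was 189, 899, 215, 6977, 1264, 6714, 2348, 1956 and 23.4 CPM, and here the stages overlapped except that E12 was the lowest. Myh6 was 199, 400, 1034, 5821, 436, 4950, 2378, 8511 and 3548 CPM, and Myh7 was 491, 1223, 1012, 9250, 977, 8855, 3856, 4517 and 546 CPM. Both heavy chains were lowest in E10 50 µm replicate 1, the library with the weakest heart call, and E10 25 µm was among the highest for both.

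**Figure D2:**
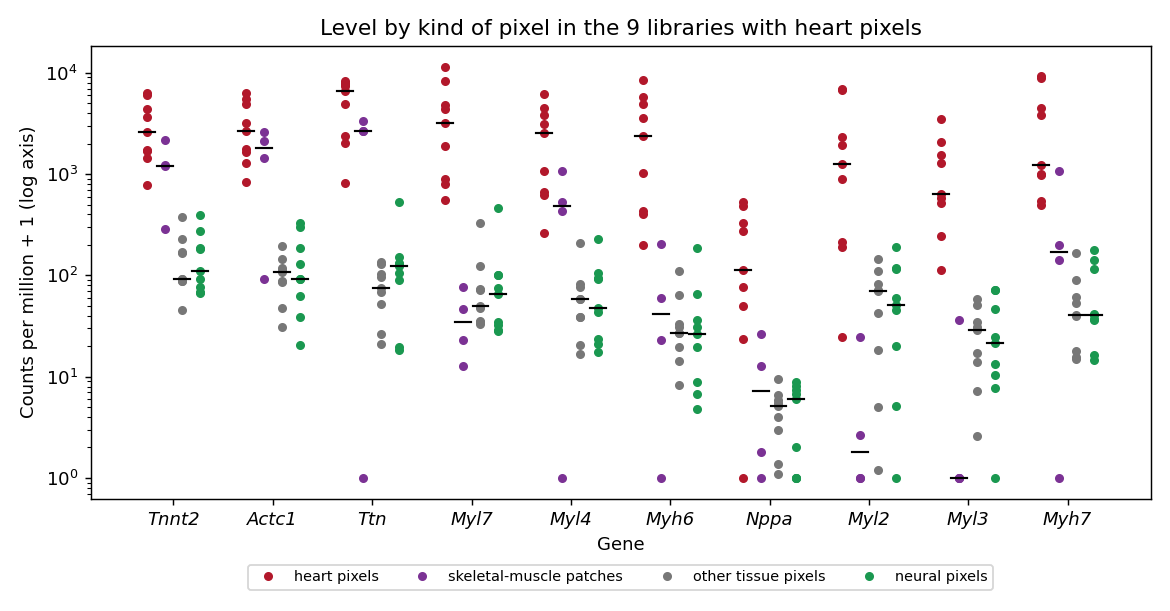
Level of each gene (CPM plus 1, log axis) in heart pixels, skeletal patches, other tissue pixels and neural pixels, with 1 point per library and a bar at the median. Over libraries, Myl7 was 556 to 11554 CPM in heart pixels and 32.1 to 329 CPM in other tissue pixels.

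Skeletal patches held some of the members. The E12 section had 330 such pixels, and E11 25 µm replicates 1 and 2 had 8 and 10. In E10 50 µm replicate 1 a patch of 5 pixels held 2 counts of the skeletal list and 0 of the heart list, and it is left out of the values that follow. In the 3 libraries Ttn stood at 2683, 3380 and 2682 CPM (E12, then E11 replicates 1 and 2), Actc1 at 1457, 2135 and 2612 CPM, and Myl4 at 436, 1067 and 527 CPM. Tnnt2 was 287, 2160 and 1195 CPM, and Myh7 140, 1067 and 199 CPM. By contrast Myl7 was 22.1, 76.2 and 11.7 CPM, and Myl2 1.64, 0.00 and 23.4 CPM. Ttn, Actc1 and Tnnt2 had chosen these patches, whereas the levels of the other members had no part in the choice. Myl3 was at most 35.1 CPM and Nppa at most 25.4 CPM. The heart list summed to 0.00 to 54.0 CPM in skeletal patches.

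The share of Myl2 among Myl2 and Myl7 counts in heart pixels ran over almost the whole scale. It was 17.4% (95% exact Clopper-Pearson interval 14.8 to 20.1, for counting error only), 53.1% and 6.32% in E10 50 µm replicates 1, 2 and 3, 78.8% in E10 25 µm and 69.5% in E10 10 µm replicate 1. At E11 it was 44.7% and 34.7% at 25 µm and 14.5% at 10 µm, and at E12 0.489% (interval 0.180 to 1.06, of 1227 counts). The E10 sections alone ranged from 6.32% to 78.8%, so the E11 values lay inside the E10 range and the E12 value below it. Whether duplicate reads were collapsed is not given in the sources used here, and reads of 1 molecule are not independent.

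Myh7 among Myh7 and Myh6 varied less. It was 71.1%, 75.3% and 49.5% in E10 50 µm replicates 1 to 3, 61.4% in E10 25 µm, 69.2% in E10 10 µm replicate 1, 64.1% and 61.8% in E11 25 µm, 34.7% in E11 10 µm replicate 2 and 13.3% at E12. Libraries low in the share of Myl2 at E11 and E12 were also low in that of Myh7, whereas E10 50 µm replicate 1 was low in the first (17.4%) and high in the second (71.1%). Mean shares over the 9 libraries were 35.5% ± 28.0 (SD, n = 9) for Myl2 and 55.6% ± 20.1 (SD, n = 9) for Myh7.

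**Figure D3:**
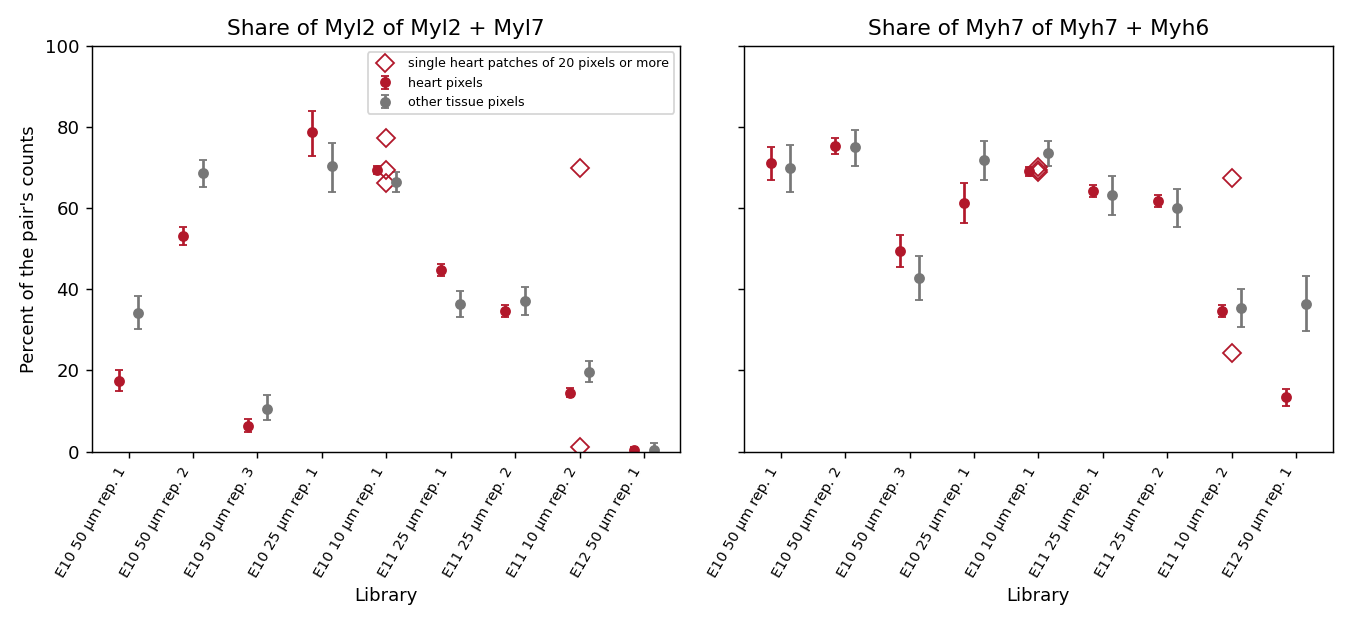
Share of Myl2 in the counts of Myl2 and Myl7 (left) and of Myh7 in those of Myh7 and Myh6 (right), in percent, for heart pixels and for other tissue pixels of 9 libraries. Bars are 95% exact binomial intervals, and diamonds are single heart patches of 20 pixels or more where a library had several, at 1.04% and 69.9% for Myl2 in E11 10 µm replicate 2.

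Counts outside the heart had shares that went with those of the heart in the same section, though not always within the counting intervals. For Myl2 the outside share was 34.2%, 68.6% and 10.5% in E10 50 µm replicates 1 to 3, 70.3% in E10 25 µm, 66.5% in E10 10 µm replicate 1, 36.4%, 37.0% and 19.7% in the E11 libraries and 0.403% at E12. The greatest gap to the heart share was 16.9 percentage points, while the heart shares spanned 0.489% to 78.8%. For Myh7 the greatest gap was 22.9 points, at E12, where 330 skeletal pixels, left out of both shares, also held Myh7. Whether the outside counts come from the heart of the same section was not tested.

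The 2 heart patches of E11 10 µm replicate 2 had opposite makeups within 1 library. The greater patch of 210 pixels held 32 Myl2 and 3037 Myl7 counts, a Myl2 share of 1.04% (interval 0.714 to 1.47). The lesser patch of 53 pixels held 520 Myl2 and 224 Myl7 counts, a share of 69.9% (66.5 to 73.2). Myh7 made up 24.4% and 67.4% of its pair in these patches. The intervals do not overlap, but they are 2 patches of 1 section, and no replicate stands behind the difference.

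The general genes were nearly level between these patches, with Ttn at 7969 and 8185 CPM, Actc1 at 6457 and 6189 CPM and Tnnt2 at 6066 and 5694 CPM in the greater and the lesser. These genes had defined the pixels of both patches, so their likeness is partly set by the rule. Myl4 was 6944 and 3760 CPM and Myh6 9724 and 4425 CPM, so both were lower in the lesser patch but far from absent. Myl3 was 1052 and 2027 CPM. The patches held 217604 and 64634 counts in all, so the chamber lists are given per depth. Of the 7 further atrial genes, Nr2f1 and Nr2f2 (COUP-TF factors) were at 198 and 202 CPM in the greater patch and 0.00 and 46.4 CPM in the lesser, Stard10 at 230 and 15.5 CPM, and Tbx5 at 170 and 77.4 CPM. Hey1, Gja5 and Sln gave 6, 3 and 2 counts in the greater patch and 0 in the lesser. Of the 3 further ventricular genes, Irx4 was at 4.60 and 77.4 CPM and Hey2 at 0.00 and 30.9 CPM, from 5 counts or fewer each, and Kcne1 gave 2 and 0 counts. The calcium pump gene Atp2a2 stood at 1990 and 248 CPM.

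The E12 heart patch held 6 Myl2 against 1221 Myl7 counts, a share of 0.489% (interval 0.180 to 1.06). That interval overlaps the one of the greater E11 patch. The E12 patch was lower than the greater E11 patch in its Myh7 share, at 13.3%. Its Myl3 was 113 CPM, and its Irx4, Hey2 and Kcne1 counts were 0, 2 and 1. Of the further atrial genes, Nr2f2 was lower in heart pixels than in the rest of the section (172 against 206 CPM). The others were higher: Nr2f1 (238 against 144 CPM), Stard10 (117 against 51.8), Tbx5 (117 against 18.1), Gja5 (85.8 against 18.1), Sln (70.2 against 12.3) and Hey1 (19.5 against 12.3). In E10 10 µm replicate 1, by comparison, the 3 patches of 51 or more pixels had Myl2 shares of 69.4%, 66.3% and 77.3% and Myh7 shares of 69.0%, 70.2% and 69.3%.

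**Figure D4:**
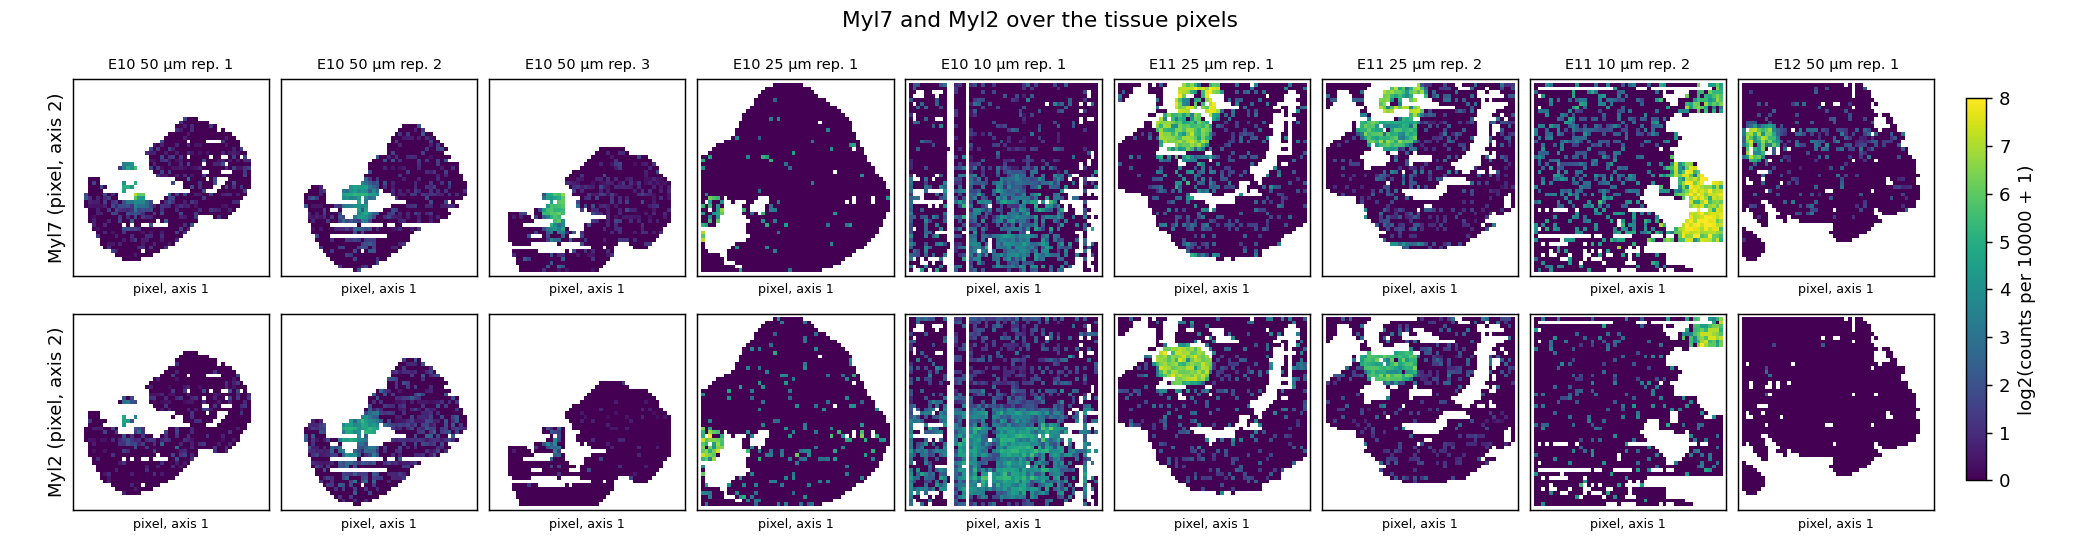
Myl7 (top) and Myl2 (bottom) as log2(counts per 10000 + 1), 0 to 8, over the tissue pixels of the 9 libraries with heart pixels. In both E11 25 µm libraries the Myl7-rich area is larger than the Myl2-rich one, and at E12 a Myl7 patch has almost no Myl2.

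Single pixels of the light chain pair also reached either end of the scale. Among heart pixels with at least 5 counts of the pair, the Myl2 share was under 10% in 50 of 174 pixels and over 90% in 6 in E11 25 µm replicate 1, and under 10% in 53 of 154 and over 90% in 0 in replicate 2. In E10 10 µm replicate 1 it was under 10% in 10 of 509 pixels and over 90% in 93. In E11 10 µm replicate 2 the numbers were 158 and 6 of 204. Over the 9 libraries 369 of 1282 pixels were under 10%, 119 over 90% and 794 between. Single libraries weigh heavily in these totals: without E10 10 µm replicate 1, 26 pixels were over 90% and 388 between, and without E11 10 µm replicate 2, 211 were under 10%. The Myh7 share was between 10% and 90% in 1036 of 1184 pixels, with 53 below and 95 above (650, 53 and 41 without E10 10 µm replicate 1). Pixels of a library are not replicates, and small counts push single pixels toward 0% and 100%.

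Pairwise correlations between members were computed across heart pixels of each library and are given as descriptions, since pixels share a library, depth and neighbours. All 45 pairs had a mean r above 0 over the libraries. The mean r was 0.49 ± 0.22 (SD, n = 9 libraries) for pairs of the ventricular genes Myl2, Myl3 and Myh7, 0.42 ± 0.22 for pairs of the atrial genes Myl7, Myl4, Myh6 and Nppa, and 0.35 ± 0.23 for pairs across the chambers. Ventricular pairs stood above pairs across chambers in 7 of 9 libraries, and atrial pairs in 6 of 9. The spread between libraries was greater than these differences. The scarce Nppa entered atrial pairs and pairs across chambers but no ventricular pair. Atrial pairs with Nppa had a mean r of 0.18 (Myl7), 0.25 (Myh6) and 0.26 (Myl4). Those without it had 0.54 (Myh6 and Myl7), 0.55 (Myh6 and Myl4) and 0.55 (Myl7 and Myl4). The atrial mean thus lay below the ventricular one only with Nppa included. Pairs across chambers without Nppa ran from 0.24 (Myl7 and Myl2) to 0.51 (Myh6 and Myh7). Pairs of Tnnt2, Actc1 and Ttn had 0.46, but these had defined the pixels. Members correlated with the median gene at -0.04 to 0.02 across tissue pixels.

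The lowest pair without Nppa was Myl7 and Myl2, with a mean r of 0.24. Its values by library were 0.61, 0.66 and 0.40 in E10 50 µm replicates 1 to 3, 0.20 in E10 25 µm, 0.29 in E10 10 µm replicate 1, -0.12 and 0.25 in E11 25 µm replicates 1 and 2, -0.36 in E11 10 µm replicate 2 and 0.19 at E12. It was below 0 in 2 of 9 libraries, both of E11. Myl2 was also negatively related to Myh6 there (-0.18 and -0.11), and to Myl4 at 10 µm (-0.17) but not at 25 µm (0.03). At E10 all 5 values of the pair were above 0. The value of 0.61 is from E10 50 µm replicate 1, the library with the weakest heart call. There 69.9% of heart pixels held a Myl7 count and 51.8% a Myl2 count.

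For the heavy chain pair, r was above 0 in all 9 libraries. Myh6 and Myh7 had a mean r of 0.51 in heart pixels, with values from 0.20 (E11 25 µm replicate 1) to 0.80 (E10 50 µm replicate 1), and 0.55 in E11 10 µm replicate 2, where Myl7 and Myl2 stood at -0.36. The value of 0.80 is from the library with the weakest heart call. There 38.6% of heart pixels held a Myh6 count and 55.4% a Myh7 count. The highest pair was Myh7 and Ttn, with 0.58 (range 0.30 to 0.90). Pairs with Nppa were low, from 0.04 with Myl2 to 0.29 with Ttn, over the 8 libraries in which it had a count in heart pixels. Across all tissue pixels, heart and rest together, Myl7 and Myl2 had a mean r of 0.43 and Myh6 and Myh7 one of 0.65.

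**Figure D5:**
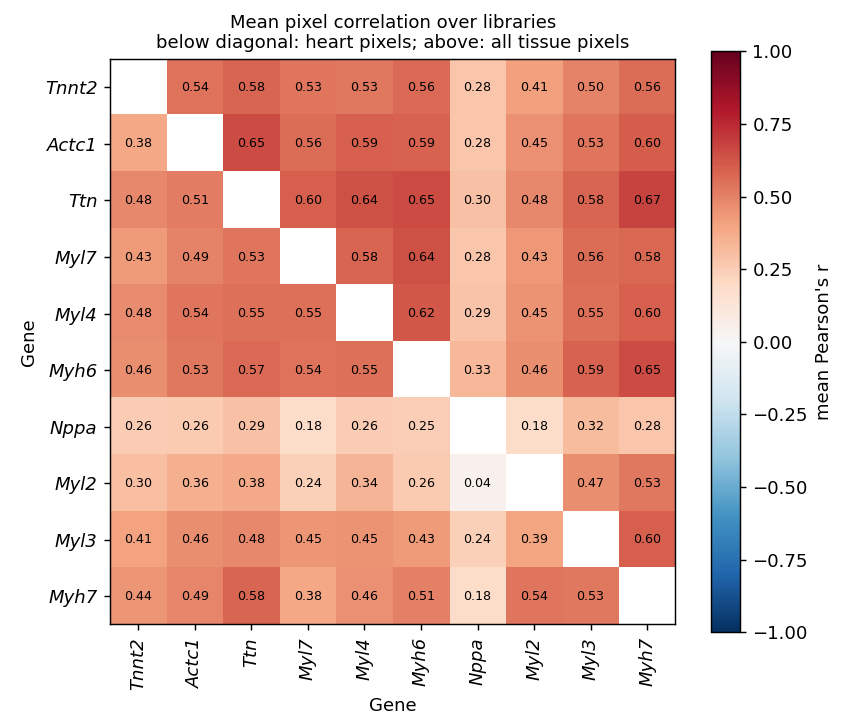
Mean Pearson's r of log2(counts per 10000 + 1) between members, averaged over libraries, across heart pixels (below the diagonal) and all tissue pixels (above it). In heart pixels Myl7 and Myl2 stand at 0.24 and Myh7 and Ttn at 0.58.

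The likeness of non-member genes to the summed members was measured as r across tissue pixels. Of 8820 genes seen in at least 1% of pixels in all 9 libraries, 8 members held ranks 1 to 8, while Myl2 and Nppa missed that filter in some library. Each member is itself part of the sum, so the ranks of the members are partly built in. The next were Tnnc1 (mean r 0.53, range 0.26 to 0.68), Tnni1 (0.53), Tnni3 (0.46) and Mybpc3 (0.45), which are troponin subunits and myosin-binding protein C. Ankrd1, Acta2 (smooth muscle actin), Pgam2 (a glycolytic enzyme of muscle), Tpm1 (tropomyosin), Des (desmin) and Csrp3 followed at 0.44 to 0.40. The median gene had -0.02. Of the 22 further sarcomere and calcium genes, 16 were higher in heart than in other tissue in all 9 libraries, among them Tnnc1 (median 636 against 17.6 CPM) and Ryr2, the calcium release channel (277 against 5.69 CPM). Some of these, Ryr2 among them, belong to the heart list that sorted the patches. Myom2 and Sln were higher in 3 and 4 libraries and had a median of 0.00 CPM in heart. Of the 7 further atrial genes 1 (Stard10), and of the 3 further ventricular genes 1 (Hey2), were higher in all 9. Nr2f2 was higher in 0.

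Marker lists named for some other cell types were also higher in heart pixels, in 9 of 9 libraries for endothelium, smooth muscle and epicardium, and in 5 of 9 for cushion mesenchyme (518 to 1961 CPM in heart, 568 to 1704 CPM elsewhere). Acta2 of the smooth muscle list is also among the non-members most like the members (mean r 0.43). A higher smooth muscle list therefore does not show that smooth muscle cells were present. The endocardium and endothelium list (Pecam1, Cdh5 and 5 others) summed to 239 to 601 CPM there against 118 to 294 CPM in other tissue, and the smooth muscle list (Acta2, Tagln and 3 others) to 413 to 2427 CPM against 44.9 to 346 CPM. The red cell list, 10725 to 210160 CPM in heart and 11825 to 95457 CPM elsewhere, was higher in heart pixels in 4 of 9. Their part in the members' values was not tested. Among the 22 antibodies in the 3 E10 sections with both layers and heart pixels, the tag share of CD102 (ICAM2, an endothelial surface protein) in heart against other tissue was higher in all 3, by log2 values of 0.10, 0.19 and 1.45, the last in the E10 25 µm section. CD41 (ITGA2B, of platelets and early blood cells) was lower in all 3, at -0.24, -0.19 and -1.14. CD102 and CD41 were chosen for their means after the values were seen. Other antibodies to endothelial proteins did not all go with CD102. In the same order, CD309 (KDR) was at -0.059, -0.013 and -0.61, and CD201 (EPCR) at -0.22, -0.14 and -0.62. ESAM was at -0.19, -0.12 and 0.01, and the panendothelial antigen at -0.09, 0.14 and 1.35.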

How the data were processed

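Transcript and antibody counts per pixel were deposited by the authors as whole numbers with no normalization. The submitters' processing notes name CASAVA 1.8.2 and GRCh38, a human build, although the samples are mouse. The aligner, annotation, strand, duplicate removal and pixel filter are not given in the sources used here. Frozen sections and a Nextera XT kit were used, per the labels' protocols. Columns with Ensembl identifiers were added to their symbols. Totals over tissue pixels were 1563489 to 11998765 counts per library, and pixels were never replicates.

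Summed counts were tested with edgeR 4.0.16 (limma 3.58.1, R 4.3.3; TMM factors, filter on low counts by group, robust quasi-likelihood fit of 6 group means, 5 residual degrees of freedom), two-sided, with Benjamini-Hochberg adjustment over 18233 genes. DESeq2 1.42.0 was an alternative. On simulated counts for E11 against E10 over 17059 genes, the test recovered 90.5% of 200 genes changed 4-fold, with 4 other calls. The simulation used the dispersion of all genes, not the larger spread of the members. No libraries of a group agreed within sampling noise (chi-square per degree of freedom 24.6 to 70.0).

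Pixel levels are log2(counts per 10000 + 1). Correlations are Pearson's r. Moran's I used the 4 nearest neighbours. Neural pixels are the top 10% of tissue pixels by a 10-gene list, with heart pixels then taken out. Named genes are all members, the 10 non-members most like them, and list genes a result turns on. The members and lists were chosen with earlier results of these data known. Antibody libraries were paired with transcript libraries by title. Tools were Python 3.11.15, numpy 2.4.6, pandas 2.3.3 and scipy 1.17.1. The file of barcodes was not used.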

Additional observations from a re-analysis of the deposited data

How the results depend on the processing

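The count of members called was 0 in all 4 comparisons of groups, and it was 0 in all 64 other settings (DESeq2, RLE size factors, no filter on low counts, a tissue threshold of 0.05, all pixels, the replicate block, and each library left out in turn, from 0 to 0), where the lowest adjusted p of a member was 0.211. Leaving out both libraries without heart pixels gave 2 called members between E11 and E10 (Myl7 at 2.76 and Myh6 at 1.69) and 1 between E12 and E10 (Myh6 at 1.8). These libraries were chosen after seeing the data and by the level of the members themselves, so those calls carry no test. In the same setting the log2 fold change turned sign for Tnnt2 between 10 and 50 µm (0.10) and, between 10 and 25 µm, for Myh7 (0.053), Ttn (0.37), Actc1 (0.83) and Tnnt2 (0.73). Since no member was called, these signs are not findings. The calls over all genes moved more: 656, 390, 20 and 378 as reported (E11 against E10, E12 against E10, 10 against 50 µm, 10 against 25 µm) were 1377, 521, 397 and 554 with DESeq2, 1988, 1328, 731 and 870 with no filter, 144 to 1465, 98 to 969, 0 to 164 and 33 to 463 with 1 library left out, and 1489, 1420, 71 and 696 without the pair of libraries that held no heart pixels.

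With 1 library left out, some log2 fold changes turned sign, and the cause was not tested. A sample left alone in its group is assumed to vary like the other groups. For E11 against E10 the range was -1.63 to 4.11 for Actc1, -1.44 to 6.14 for Myh6, -2.28 to 3.81 for Myh7, -2.70 to 3.57 for Myl2, -1.87 to 4.31 for Myl3, -1.25 to 4.07 for Myl4, -3.71 to 5.37 for Nppa, -1.27 to 5.28 for Tnnt2, -1.67 to 4.96 for Ttn. For E12 against E10 the range was -1.18 to 0.39 for Myh7. For 10 against 50 µm at E10 the range was -5.34 to 1.85 for Actc1, -7.69 to 2.09 for Myh6, -5.27 to 2.36 for Myh7, -5.26 to 4.0 for Myl2, -6.49 to 2.32 for Myl3, -4.10 to 2.19 for Myl4, -4.45 to 1.17 for Myl7, -7.97 to 4.45 for Nppa, -9.10 to 0.10 for Tnnt2, -7.52 to 2.46 for Ttn. For 10 against 25 µm at E11 the range was -5.34 to 0.83 for Actc1, -5.52 to 1.75 for Myh6, -6.59 to 0.051 for Myh7, -4.78 to 1.42 for Myl4, -4.99 to 1.42 for Myl7, -5.03 to 0.73 for Tnnt2, -5.86 to 0.37 for Ttn. The libraries behind most of these turns were E10 10 µm replicate 1 and E11 10 µm replicate 2, the ones with heart pixels in their groups.

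Titles give the E11 libraries the numbers 1 and 2 at both widths. Replicate 1 minus 2 correlated between the widths at r = 0.06 over 18233 genes. The sections may cover different regions, so this value cannot show whether the numbers pair the samples. With the replicate block, 0 members were called, and between 10 and 25 µm at E11 Myh6 was -1.46, Myl7 -1.60 and Myl4 -1.43 where the fit without it gave 0.76, 0.44 and 0.44. The block gave 831, 349, 0 and 297 calls over all genes in the order above.

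The mean pixel correlations and pair shares moved by less than their SD between libraries under each alternative: heart pixels from 5 or 20 per 10000, Spearman's rho, thinning to 1000 counts, patches with at least 20 heart-list counts (added later), and each library left out. At 5 per 10000 and on thinning, 8 libraries gave a value, and at 5 per 10000 atrial pairs (0.38) no longer stood above pairs across chambers (0.39). Thinned pixels held a member less often, with Tnnt2 in 19.8% of pixels in place of 47.6% on average. Depth limits members with few counts, such as Nppa in all libraries and Myl2 at E12.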
